A study of Mus musculus with 18 samples.

Results

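The transcription factor p53 and the genes it controls were examined in female mice carrying a deletion of Xist. The set holds 32 genes chosen by name, being Trp53, which encodes p53, its ubiquitin ligase Mdm2 and 30 genes known as p53 targets in growth arrest, apoptosis, DNA repair and metabolism, of 46078 gene identifiers in each deposited table. RNA was sequenced from cultured primary tail-tip fibroblasts, with 3 mutant and 3 control libraries, and from spleen, liver and brain of mice at postnatal day 1, with 2 mutant and 2 control libraries per organ. Mutants carried the Xist deletion on both X chromosomes. Controls were heterozygous for the same deletion, so every animal in the study had at least 1 deleted copy and no wild-type animal was measured, although the columns of the deposited tables call the controls WT. All animals were female. The sources used here do not give the strain, the driver of the deletion, its extent or whether several organs came from 1 animal. The series' design text calls the replicates biological, and the p-values below measure the spread between these libraries.

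Cells hold p53 at a low level because Mdm2 marks it for destruction and is itself a p53 target. DNA damage, oncogene signals and nucleolar stress release p53, which then induces Cdkn1a (p21, an inhibitor of cyclin-dependent kinases) and, in some cells, genes that open the mitochondrial route to apoptosis such as Bax, Bbc3 (Puma) and Pmaip1 (Noxa). Several members also answer other signals. Cdkn1a responds to glucocorticoids, Sesn1 to FoxO factors and Btg2 and Plk3 to growth factor and stress signals, so the question put to these data was whether p53 targets moved together or whether only such members did.

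RefSeq promoter windows (build GRCm38.p6, 250 bases before to 50 bases after a start) were found for 24 of the 32 members. The p53 decamer, which occurs as a pair in a full p53 element, was searched on both strands and matched in at least 1 window of 10 members (Aen, Bax, Ccng1, Cdkn1a, Ei24, Gadd45a, Mdm2, Polk, Sesn1 and Trp53), against 9.55% of all 27025 genes with a window and 8.36% of all 32851 windows. A pair of decamers at most 13 bases apart was matched in 1 member, Cdkn1a, against 0.0740% of genes and 0.0731% of windows. The cyclic AMP response element TGACGTCA, which reads the same on both strands, was matched in Btg2 and Plk2, against 2.03% of genes and 1.79% of windows. The glucocorticoid response element GNACANNNTGTNC, searched on both strands, was matched in none of the 24, against 0.537% of genes and 0.475% of windows, which says only that these letters are not in these windows. RefSeq gives Cdkn1a a pair of starts, and the decamers were matched at the upstream start only, with 0 in the window at chr17:29093519-29093818. The upstream Cdkn1a window is shown for its p53 pair, with the decamers in capitals at 73 to 64 and 51 to 42 bases before that start. Btg2 and Plk2 are shown because they share an element, in capitals at 166 to 159 and 62 to 55 bases before their starts, and had different values in liver. The windows are chr17:29090729-29091028, plus strand, for Cdkn1a, chr1:134079106-134079405, minus strand, for Btg2 and chr13:110394794-110395093, plus strand, for Plk2.
Cdkn1a: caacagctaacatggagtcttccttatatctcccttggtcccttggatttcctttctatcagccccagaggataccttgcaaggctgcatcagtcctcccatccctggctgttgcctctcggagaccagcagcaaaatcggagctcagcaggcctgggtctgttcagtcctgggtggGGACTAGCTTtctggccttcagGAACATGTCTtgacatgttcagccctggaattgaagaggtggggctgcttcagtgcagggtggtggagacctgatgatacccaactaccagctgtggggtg
Btg2: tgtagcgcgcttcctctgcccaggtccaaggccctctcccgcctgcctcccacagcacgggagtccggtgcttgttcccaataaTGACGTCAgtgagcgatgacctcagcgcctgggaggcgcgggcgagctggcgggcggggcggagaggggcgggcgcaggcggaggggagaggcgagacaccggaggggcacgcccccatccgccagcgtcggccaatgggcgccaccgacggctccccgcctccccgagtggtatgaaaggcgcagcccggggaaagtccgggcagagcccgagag
Plk2: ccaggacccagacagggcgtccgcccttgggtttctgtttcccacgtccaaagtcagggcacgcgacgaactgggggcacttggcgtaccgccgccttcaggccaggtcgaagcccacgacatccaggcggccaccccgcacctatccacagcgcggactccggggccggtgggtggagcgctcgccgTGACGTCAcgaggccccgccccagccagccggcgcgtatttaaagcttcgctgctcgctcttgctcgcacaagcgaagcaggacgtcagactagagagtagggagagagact

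Values are given as signal, the authors' scaled read counts, on a scale close to CPM. Libraries held 12.4 M to 29.2 M reads assigned to genes, and a gene without a read could have held up to 3 reads, a signal of 0.103 to 0.225, counting error only. Xist, the deleted gene, averaged less in mutants in every tissue, at 0.576% of the control mean in brain, 7.22% in spleen and 8.66% in the fibroblasts. Its remainder was largest in liver, where it had 177.6 and 256.7 in mutants, against 593.6 and 730.4 in controls (32.8%). Defining markers of the labelled tissue were present in each, all 6 hepatocyte markers in liver, all 6 neuron markers in brain and all 6 fibroblast markers in fibroblasts. In spleen, control 1 stood apart, with a summed signal of 12097 over 20 proliferation genes and 13798 over 8 erythroid markers, where the other 3 spleens had 3689 to 4428 and 3442 to 4745. Spleen mutant 2 and control 1 also held pancreatic acinar transcripts, all 5 of 5 markers, with a summed signal of 6365 in mutant 2 and 11.2 in mutant 1, against 823 in control 1 and 1.01 in control 2.

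Mutants were compared with controls inside each tissue by limma on log2(signal + 0.5), with genes averaging under 1 in the table left out, and by DESeq2 on the recovered whole reads as the second test. Both were adjusted over all genes of the tissue at 0.05. Of the 32 members, 31 passed the filter in fibroblasts and liver and 30 in spleen and brain. By limma 0 members passed in each tissue, where 0 of 13077 genes passed in fibroblasts, 0 of 16578 in spleen, 0 of 15075 in liver and 4 of 16909 (0.0237%) in brain. DESeq2 called 4 members in liver, where it called 1.4% of genes, and 2 in spleen, where it called 1.1%, each higher in mutants, and 0 in fibroblasts and brain. EdgeR called 0 members, where it called 0 of all genes in fibroblasts, spleen and liver and 4 of 16909 in brain. At an unadjusted limma p under 0.05 stood 6 members in liver (6.67% of genes), 2 in spleen (6.27%), 2 in brain (4.07%) and 0 in fibroblasts (0.971%). Fold changes of log2(signal + 0.5) understate changes of genes with low signal, and in these bulk samples fewer cells of a type and less RNA per cell cannot be told apart.

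**Figure D1:**
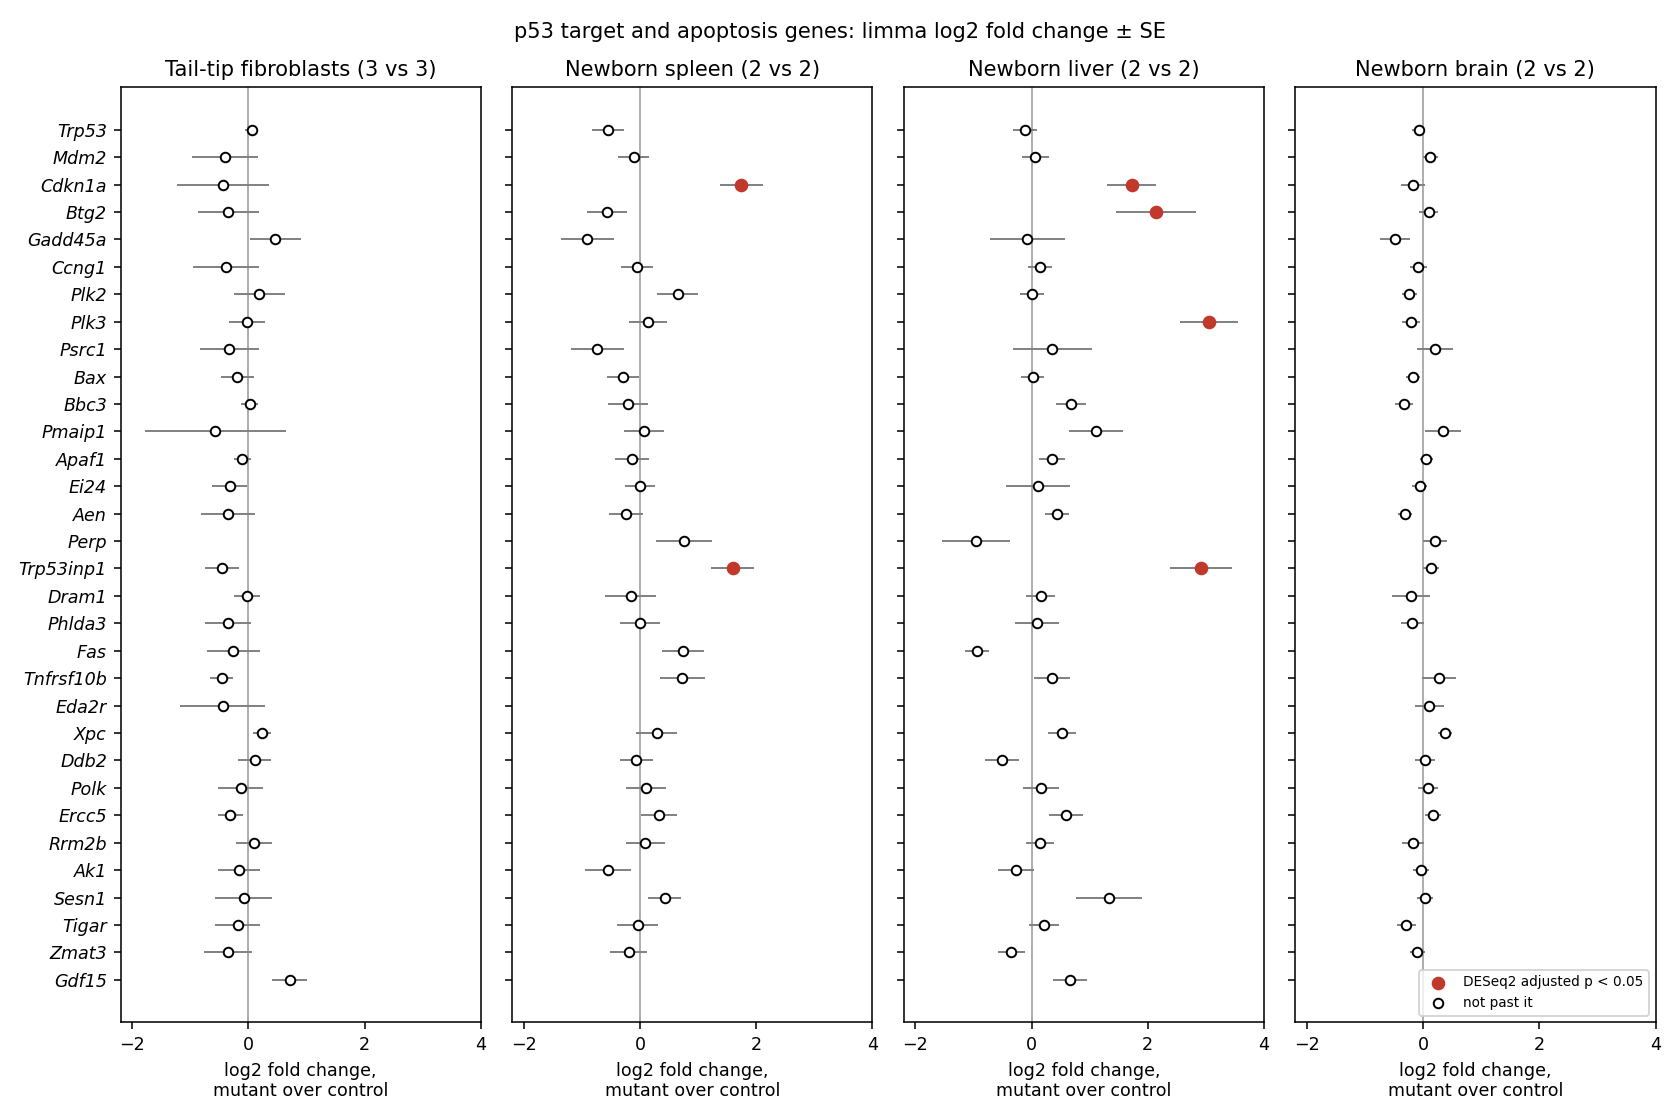
Limma log2 fold change of log2(signal + 0.5), mutant over control, with its standard error (horizontal lines), for each member tested in 4 tissues; filled red points passed DESeq2 at an adjusted p of 0.05. The 4 filled points in liver and the 2 in spleen lie to the right of 0, and in brain every point lies between -0.48 and 0.38.

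In mutant liver, 4 members of 31 tested were higher by DESeq2, namely Plk3, Trp53inp1, Btg2 and Cdkn1a, against a background of 0.955% of genes called higher. They were raised 8.55-, 8.78-, 5.30- and 3.59-fold on mean signal. In GENCODE M21 (GRCm38) Plk3 (ENSMUSG00000028680) lies at chr4:117128655-117133963, Trp53inp1 (ENSMUSG00000028211) at chr4:11156431-11174379, Btg2 (ENSMUSG00000020423) at chr1:134075170-134079120 and Cdkn1a (ENSMUSG00000023067) at chr17:29090976-29100727. Trp53, Mdm2, Bax, Ccng1 and Plk2, among them textbook readouts of p53, differed by at most 0.15 on the log2 scale. Other p53 targets moved more and passed neither test. Sesn1 (1.33), Pmaip1 (1.10), Bbc3 (0.68) and Aen (0.44) were among those higher, and Perp (-0.96) and Fas (-0.94) among those lower. The median log2 fold change of the 31 members was 0.16, against 0.05 over all genes, and 24 of the 31 lay above 0, against 55.9% of all genes. The median depended on single libraries, at 0.27 without mutant 1, 0.38 without mutant 2, 0.32 without control 1 and 0.080 without control 2. The median over all genes was 0.075, 0.031, 0.00032 and 0.105 in the same order. Without control 2 the members thus lay below all genes.

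Of p53 and its ligase, Trp53 had 58.1 and 64.7 in mutant livers, against 65.8 and 66.8 in control livers (log2 fold change -0.11, SE 0.20, limma adjusted p = 0.961). The mutants were lower without overlap, by a small margin. Mdm2 had 43.7 and 33.7 in mutant livers, against 36.1 and 37.1 in control livers (log2 fold change 0.07, SE 0.23, limma adjusted p = 0.988). The mutants lay on either side of the controls.

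Of the growth arrest genes, Plk3, a polo-like kinase of stress responses, had 179.1 and 88.8 in mutant livers, against 10.05 and 21.3 in control livers. Both mutants stood above both controls, by 3.06 on the log2 scale (SE 0.50), with an adjusted p of 2.57e-06 by DESeq2 and 0.408 by limma. Btg2, an antiproliferative regulator of mRNA decay, had 707.1 and 182.7 in mutant livers, against 104.2 and 63.8 in control livers. Mutant 1 was far above the other 3 livers, and the groups did not overlap. On the log2 scale the difference was 2.13 (SE 0.69), with an adjusted p of 0.0328 by DESeq2 and 0.697 by limma. Cdkn1a had 106.0 and 48.0 in mutant livers, against 24.4 and 18.6 in control livers. Again both mutants were above both controls and mutant 1 above mutant 2. The log2 fold change was 1.72 (SE 0.42), with an adjusted p of 0.0313 by DESeq2 and 0.605 by limma. The other growth arrest genes did not pass. Ccng1, cyclin G1, had 22.9 and 21.8 in mutant livers, against 21.1 and 19.1 in control livers, higher without overlap by a small margin. Plk2, a relative of Plk3 whose window shares the element shown for Btg2, had 23.4 and 26.0 in mutant livers, against 24.2 and 24.8 in control livers, with the mutants on either side of the controls. Gadd45a, a growth arrest and DNA damage protein, and Psrc1, a microtubule regulator, had overlapping groups (log2 fold changes -0.07 and 0.36).

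Of the apoptosis genes, Trp53inp1, a nuclear protein that promotes p53 activity and autophagy, had 453.1 and 154.1 in mutant livers, against 32.1 and 37.1 in control livers. Both mutants were above both controls, by 2.92 on the log2 scale (SE 0.53), with an adjusted p of 1.12e-05 by DESeq2 and 0.454 by limma. Bbc3, a BH3-only killer protein, had 27.5 and 21.6 in mutant livers, against 17.2 and 13.02 in control livers. The groups did not overlap (log2 fold change 0.68, SE 0.26), and the adjusted p was 0.935 by DESeq2 and 0.744 by limma. Pmaip1, another BH3-only protein, was likewise above without overlap at 5.76 and 2.20 in mutant livers, against 1.59 and 1.25 in control livers, and did not pass (adjusted p of 0.567 by DESeq2). Bax, the pore-forming effector, had 17.2 and 18.1 in mutant livers, against 17.3 and 17.5 in control livers, with overlapping groups. Apaf1, the apoptosome scaffold, and Aen, an apoptosis-enhancing nuclease, stood higher in mutants without overlap at log2 fold changes of 0.34 and 0.44 and did not pass. Perp, a desmosome-linked effector, had the lowest log2 fold change of the members (-0.96) with overlapping groups, at 8.90 and 25.1 in mutant livers, against 20.8 and 42.2 in control livers. Ei24, Dram1 and Phlda3 also overlapped between groups.

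Of the death receptors, Fas, which binds the Fas ligand and triggers apoptosis, had 6.28 and 7.03 in mutant livers, against 12.9 and 13.5 in control livers. Both mutants were below both controls, close to 0.505 of the control mean. The log2 fold change was -0.94 (SE 0.21), with an adjusted p of 0.0854 by DESeq2 and 0.582 by limma, so Fas did not pass. Tnfrsf10b, the TRAIL receptor, overlapped between groups, and the X-linked receptor gene Eda2r was under the filter, at 1.09 and 0.446 in mutant livers, against 0.509 and 0.0804 in control livers. Of the repair genes, Xpc, a damage sensor of nucleotide excision repair, and the excision nuclease gene Ercc5 stood higher without overlap (log2 fold changes 0.53 and 0.59), and Ddb2, a sensor of ultraviolet damage, lower (-0.50), with none past either test. Of the metabolic and secreted members, Sesn1, a leucine-sensing inhibitor of mTORC1, had 79.3 and 25.4 in mutant livers, against 20.8 and 14.8 in control livers. Mutant 1 was far above the rest, the groups did not overlap, and the adjusted p was 0.341 by DESeq2. Gdf15, a secreted stress cytokine, was also higher without overlap (log2 fold change 0.66) and Zmat3, an RNA-binding protein, lower (-0.34), with neither past a test.

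Single libraries decided some of these calls. Leaving out mutant 1, DESeq2 called Plk3 and Trp53inp1 only, with an adjusted p of 0.99988 for Cdkn1a and for Btg2. Leaving out control 2 it also called Plk3 and Trp53inp1 only, with 0.380 for Cdkn1a and 0.216 for Btg2. Without control 1 the same 4 passed, and without mutant 2 Sesn1 passed as well. With the spread pooled over all 8 groups of libraries limma called Plk3 (adjusted p = 0.0014) and Trp53inp1 (adjusted p = 0.0033), where it called 1.84% of genes. These p-values do not measure the spread between livers alone. For Plk3 the SD within groups was 0.73 on the log2 scale in liver, 0.45 in fibroblasts, 0.026 in spleen and 0.13 in brain. That of Trp53inp1 was 0.78, 0.425, 0.48 and 0.12 in the same order. Mutant 1 was the highest of the 4 livers in 17 of 31 members (54.8%), against 29.1% of all genes. Proliferation genes did not follow genotype in liver, with a summed signal over 20 genes of 3317 and 1464 in mutants, against 3162 and 1235 in controls. Erythroid markers, 8 of 8 present, gave 6094 and 2596 in mutant livers, against 5598 and 1628 in control livers, and hepatocyte markers, 6 of 6 present, gave 124752 and 101738 in mutants, against 128991 and 100042 in controls. These sums were higher in library 1 than in library 2 of either genotype. Among 5 marker sums that separated the genotypes in liver were those of fibroblast markers, 6 of 6 present, at 551.8 to 623.2 in mutants, against 381.5 to 495.6 in controls, and of endothelial markers, 6 of 6 present, at 600.7 to 608.6 in mutants, against 471.5 to 537.2 in controls. Markers of astrocytes and radial glia, 5 of 5 present, summed to 636.0 to 636.9 in mutants, against 462.9 to 572.6 in controls. Of the 4 tested, however, 1 lay above 0 and 3 below (median log2 fold change -0.29). Neuron and keratinocyte markers, higher and lower in mutants, summed to at most 22.5 and 3.06 in any liver. The part of these marker sums in the member values was not tested.

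**Figure D2:**
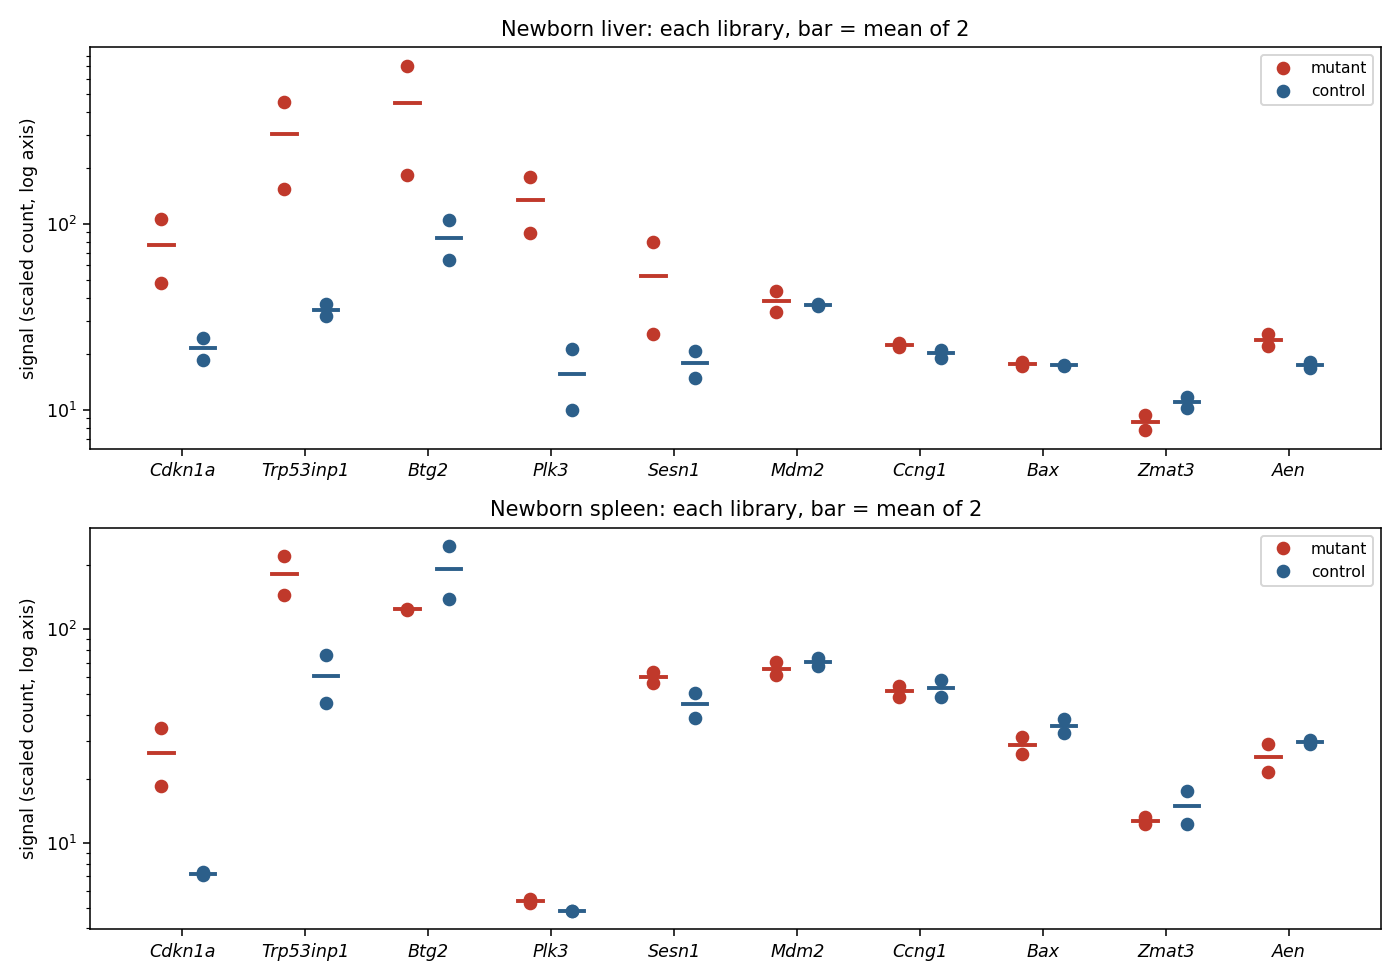
Signal (log axis) of 10 members in each mutant and control library (points) with the mean of 2 (bars), in liver above and spleen below. In both organs the mutant points of Cdkn1a and Trp53inp1 lie above the control points, those of Btg2 do so in liver alone, Plk3 separates widely in liver and narrowly in spleen, and Mdm2 and Bax overlap or nearly touch in both.

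Among all 31 members tested in liver, 13 (41.9%) stood above in both mutants, against 23.5% of genes, and 4 (12.9%) stood below, against 13.1%. All the members called lay in the growth arrest group, 3 of 7, or the apoptosis group, 1 of 10. No death receptor, repair or metabolic member was called, of 2, 6 and 4 tested. DESeq2 called 1.4% of all liver genes, so 0 calls in groups this small say nothing about them.

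In mutant spleen, 2 members of 30 tested were higher by DESeq2, Cdkn1a and Trp53inp1, against a background of 0.953% of genes called higher. They were raised 3.68- and 3.00-fold on mean signal. The median log2 fold change of the 30 members was -0.02, against -0.07 over all genes, and 13 of 30 lay above 0, against 43.5% of all genes. Members with separated groups were 7 higher, against 18.3% of genes, and 5 lower, against 21.9% of genes, so the shares of 23.3% and 16.7% were near the background.

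Cdkn1a had 34.6 and 18.5 in mutant spleens, against 7.10 and 7.34 in control spleens. Both mutants were above both controls, which lay close together. Its difference was 1.74 on the log2 scale (SE 0.37), with an adjusted p of 0.00433 by DESeq2 and 0.448 by limma. Trp53inp1 had 219.3 and 144.1 in mutant spleens, against 45.2 and 76.0 in control spleens, with mutants above controls by 1.59 on the log2 scale (SE 0.37) and an adjusted p of 0.0110 by DESeq2 and 0.494 by limma. Eda2r and Gdf15 were under the filter in spleen. Without spleen mutant 1 neither gene passed DESeq2 (adjusted p of 0.99997 for both). Without mutant 2 Cdkn1a passed (0.0345) and Trp53inp1 did not (0.136), and without control 1, the library with the large proliferation and erythroid signal, both passed (0.0356 and 0.0496).

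The remaining members of spleen did not pass either test. Trp53 had 105.8 and 128.3 in mutant spleens, against 175.4 and 164.7 in control spleens, lower without overlap (log2 fold change -0.54, SE 0.27, limma adjusted p = 0.779). Mdm2 had 61.0 and 70.2 in mutant spleens, against 73.8 and 67.4 in control spleens, with overlapping groups (log2 fold change -0.11, SE 0.26). Plk3, at 5.26 and 5.47 in mutant spleens, against 4.83 and 4.83 in control spleens, was higher without overlap by 0.14 on the log2 scale. Btg2 lay on the other side of its liver value, at 123.3 and 124.8 in mutant spleens, against 244.8 and 139.4 in control spleens, with control 1 far above the other libraries. Gadd45a had 24.9 and 26.6 in mutant spleens, against 79.0 and 30.0 in control spleens, also with control 1 far above the other libraries. Without control 2, which leaves control 1 as the lone control, DESeq2 called Btg2, Gadd45a and Psrc1 lower as well as 1555 genes in all.

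The death receptors had higher signal in mutant spleens without overlap and did not pass. Fas had 6.76 and 4.56 in mutant spleens, against 3.10 and 3.16 in control spleens (log2 fold change 0.74, SE 0.36, limma adjusted p = 0.779). Tnfrsf10b had 18.3 and 11.9 in mutant spleens, against 6.62 and 11.4 in control spleens. Control 2 of Tnfrsf10b lay just below mutant 2. The killer genes Bax and Bbc3 had log2 fold changes of -0.29 and -0.20. None of the 20 proliferation genes lay above 0 in spleen (median log2 fold change -0.86, 0 called by DESeq2). Marker sums that separated the genotypes included those of fibroblasts, all 6 present, at 4639 and 2861 in mutants, against 1886 and 2334 in controls, and of erythroid cells, all 8 present, at 3442 and 3789 in mutants, against 13798 and 4745 in controls. Their part in the member values was not tested.

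In fibroblasts no member passed limma or DESeq2, where DESeq2 called 0.0229% of genes, and 23 of 31 members tested lay below 0 (median log2 fold change -0.19, against -0.00 over all genes). The members differed widely between libraries of the same genotype, and the lack of calls does not show that the genotypes were alike. Cdkn1a had 664.4, 99.1 and 460.9 in mutants 1 to 3, against 225.8, 419.1 and 788.7 in controls 1 to 3. Mutant 2 was the lowest and control 3 the highest, and the groups overlapped throughout (log2 fold change -0.43, SE 0.79, limma adjusted p = 0.9997). Mdm2 had 148.4, 44.7 and 111.3 in mutants 1 to 3, against 72.5, 104.6 and 228.4 in controls 1 to 3 (log2 fold change -0.41, SE 0.57). Ccng1 had 611.0, 219.7 and 543.4 in mutants 1 to 3, against 286.1, 560.9 and 1007 in controls 1 to 3. All 3 genes placed mutant 2 lowest, control 1 next and control 3 highest. Trp53 itself was level across the 6 libraries, at 169.6, 162.3 and 191.3 in mutants, against 161.4, 175.4 and 165.8 in controls (log2 fold change 0.06, SE 0.11).

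This order, noticed in the data, was widespread among the members. Mutant 2 and control 1 were the lowest pair of libraries in 20 of 31 members (64.5%), against 16.9% of all genes. Mutant 2 was lowest and control 3 highest in 15 of 31 (48.4%), among them Mdm2, Cdkn1a, Ccng1, Bax, Aen, Phlda3, Eda2r and Zmat3, against 8.36% of all genes. On average over the members, libraries deviated from the gene mean by 0.26, -0.59 and 0.09 on the log2 scale in mutants 1 to 3 and by -0.28, 0.05 and 0.47 in controls 1 to 3. Members spread more than other genes, with a median SD within groups of 0.56 on the log2 scale, against 0.25 over all genes. The p53 activator Cdkn2a, whose Arf product inhibits Mdm2, had 176.2, 52.8 and 170.9 in mutants 1 to 3, against 90.2, 185.9 and 244.7 in controls 1 to 3, with the same pair of libraries lowest. Sesn1 ran the other way, at 4.50, 17.6 and 8.44 in mutants, against 13.03, 9.27 and 6.77 in controls.

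**Figure D3:**
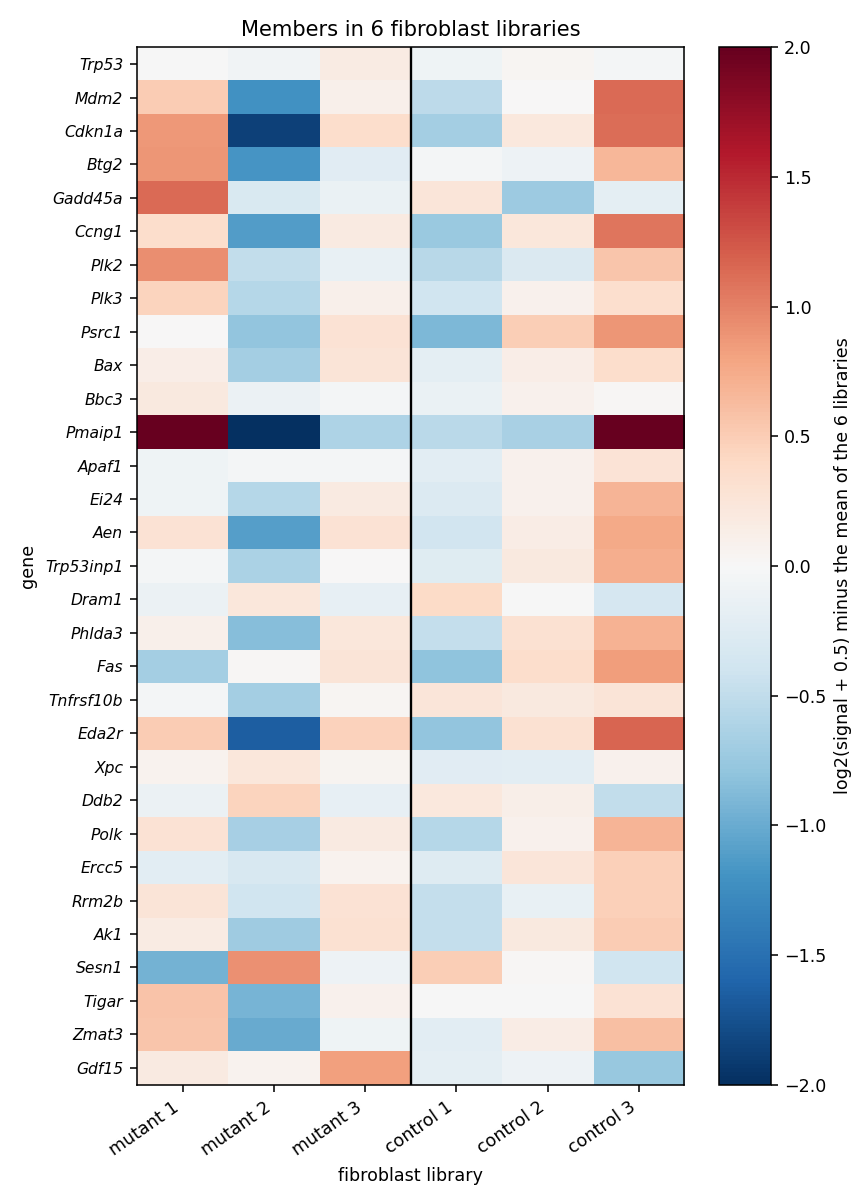
Log2(signal + 0.5) of each member tested in each fibroblast library, minus the mean of the 6 libraries (red higher, blue lower, colours capped at 2 in either direction); mutants stand left of the black line and controls right of it. The mutant 2 column is blue for most rows and the control 3 column red, while Trp53 is pale in all 6 libraries.

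Among members with separated groups in fibroblasts were Gdf15, higher at 2.60, 2.36 and 4.33 in mutants, against 1.89, 2.04 and 1.11 in controls, and Tnfrsf10b, lower at 108.5, 69.9 and 114.8 in mutants, against 132.0, 127.7 and 134.0 in controls. Neither passed (unadjusted limma p of 0.0537 and 0.0603, adjusted 0.9997), and 1 of 31 in each direction stands beside 2.07% of all genes higher and 1.65% lower. The next smallest limma p-values had overlapping groups. Trp53inp1 had 95.7, 63.3 and 98.7 in mutants, against 83.4, 113.2 and 163.5 in controls (log2 fold change -0.45), and Xpc had 12.7, 14.2 and 12.4 in mutants, against 10.2, 10.3 and 12.8 in controls (0.24). Ercc5 had 32.3, 29.8 and 39.1 in mutants, against 31.1, 44.5 and 52.0 in controls (-0.31), and Ei24, a membrane protein of the endoplasmic reticulum, had 64.7, 45.9 and 77.3 in mutants, against 56.4, 72.5 and 110.1 in controls (-0.32). Control 3 was the highest library in Trp53inp1, Ercc5 and Ei24. Perp was under the filter, at 0.139, 0.0514 and 0 in mutants, against 0.180, 0 and 1.38 in controls. The proliferation list ran against the members across most libraries, with mean deviations of -0.58, 0.49 and 0.13 in mutants 1 to 3, against 0.21, 0.13 and -0.39 in controls 1 to 3, and fibroblast markers, 6 of 6 present, summed to 22865 to 36769 in mutants, against 20412 to 22214 in controls. Their part in the member values was not tested. The median over the members was -0.45 without mutant 1 and 0.10 without mutant 2, so its direction rested on single libraries.

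In brain, where Xist loss was deepest, no member passed limma or DESeq2. DESeq2 called 0 of 30 tested, against 0.242% of genes, the median log2 fold change was -0.04, against -0.01 over all genes, and 14 of 30 lay above 0, against 46.1% of all genes. The range was -0.48 to 0.38. Cdkn1a had 46.3 and 54.0 in mutant brains, against 43.8 and 72.7 in control brains (log2 fold change -0.17, SE 0.21, limma adjusted p = 0.99999), with the mutants between the controls. Mdm2 had 49.7 and 47.4 in mutant brains, against 48.0 and 41.2 in control brains (0.12, SE 0.13), and Trp53 had 48.3 and 46.0 in mutant brains, against 50.4 and 48.9 in control brains (-0.07, SE 0.11). Xpc was higher without overlap at 38.8 and 40.1 in mutant brains, against 31.1 and 29.3 in control brains (log2 fold change 0.38, SE 0.12, limma adjusted p = 0.99999). Aen was lower without overlap at 28.4 and 28.8 in mutant brains, against 35.99 and 35.3 in control brains (-0.31, SE 0.13, limma adjusted p = 0.99999). These 2 had the smallest p-values and failed the adjustment. Bbc3 followed with 18.7 and 22.7 in mutant brains, against 26.9 and 25.1 in control brains (log2 fold change -0.33), and Gadd45a with 1.94 and 2.63 in mutant brains, against 3.11 and 3.60 in control brains (-0.48). Plk2 had 160.7 and 191.4 in mutant brains, against 227.4 and 188.8 in control brains (-0.24), and Tigar, a phosphatase that restrains glycolysis, had 12.1 and 14.8 in mutant brains, against 16.1 and 16.7 in control brains (-0.29). Of these 4, Plk2 overlapped between groups and the others were lower without overlap. Separated groups were found for 4 members higher, against 13.8% of genes, and 7 lower, against 16.3% of genes. Fas and Gdf15 were under the filter.

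Levels per kilobase of exon show which members each tissue transcribed most. In fibroblasts Ccng1 led at 130 per kb in mutants and 176 in controls, followed by Cdkn1a, Ak1, an adenylate kinase, and Phlda3, an inhibitor of Akt. In liver Btg2 led at 162 in mutants and 30.6 in controls, and in spleen also, at 45.2 in mutants and 70.0 in controls. In brain Plk2, a kinase induced by neuronal activity, led at 39.2 in mutants and 46.3 in controls. The tables were normalized separately, so these are orders within a tissue.

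The change in mutants was then compared between tissues by the difference of the log2 fold changes, over 11439 genes and 6 pairs of tissues. Limma called 2 member differences, both between fibroblasts and liver, where it called 0.0962% of genes. The joint limma fit shared its spread over the 8 groups, so its p-values do not measure the spread within the compared tissues alone. For Plk3 the change in fibroblasts minus that in liver was -3.09 (SE 0.51, limma adjusted p = 0.0476), with mutants over controls at -0.02 in fibroblasts and 3.06 in liver. For Trp53inp1 it was -3.37 (SE 0.56, limma adjusted p = 0.0476), with -0.45 in fibroblasts and 2.92 in liver. DESeq2 passed both, where it called 0.909% of genes, as well as the Plk3 change in liver minus that in brain (adjusted p = 7.8e-05) and in spleen minus liver (0.0018, 0.935% of genes called), the Trp53inp1 change in liver minus that in brain (0.00591, 0.358% of genes called) and the Trp53 change in fibroblasts minus that in spleen (0.0439, 0.481% of genes called). Limma did not pass these 4. For Cdkn1a the changes in spleen and liver, 1.74 and 1.72, differed by 0.02 (SE 1.04), and its difference from fibroblasts or brain passed in no pair. These differences were sensitive, since no member difference passed edgeR and leaving out 1 library left 0 to 5. Comparisons within the pairs that involve the same tissue share that tissue's libraries.

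To set the members beside neighbouring programs, lists of other genes were counted by the same tests. Of 23 further p53 targets, 19 were tested in liver and 9 lay above 0 (median log2 fold change -0.01), against 55.9% of all genes. DESeq2 called 1 of them, against 1.4% of all genes. That gene was Sesn2, a sestrin also induced by ATF4, at 72.3 and 43.1 in mutant livers, against 16.2 and 13.3 in control livers (log2 fold change 1.89, SE 0.32, DESeq2 adjusted p = 0.0012). In spleen 8 of 20 lay above 0 (median -0.27), in fibroblasts 6 of 22 (median -0.18) and in brain 5 of 21 (median -0.16). Over all genes 43.5%, 48.9% and 46.1% lay above 0 in the same order. None of these targets passed limma or DESeq2 in these 3 tissues. In brain 7 of the 21 (33.3%) were lower in both mutants, against 16.3% of genes, and 3 of them, Tgfa, Trp53i13 and Zfp365, had an unadjusted limma p under 0.05. Tgfa, a ligand of the epidermal growth factor receptor, had 42.2 and 44.4 in mutant brains, against 63.0 and 54.1 in control brains (log2 fold change -0.43). Of 16 regulators of p53, among them the damage kinases, none passed in any tissue by limma or DESeq2. Their medians were -0.02 in fibroblasts, -0.35 in spleen, 0.07 in liver and 0.10 in brain. In spleen 9 of 13 tested (69.2%) were lower in both mutants, against 21.9% of genes, and 0 higher. In brain 6 of 14 tested (42.9%) were higher in both mutants, against 13.8% of genes, and 0 lower. Of 26 further apoptosis effectors none passed, the smallest p in liver being that of Bcl2l11 (Bim), at 62.9 and 51.3 in mutants, against 33.2 and 40.6 in controls, and in spleen that of Bmf, at 97.9 and 110.7 in mutants, against 25.2 and 62.4 in controls.

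Glucocorticoid receptor targets stood higher in liver and spleen, where DESeq2 called Cdkn1a and Trp53inp1, and by less in brain, where it called neither. In liver 16 of 16 lay above 0 (median log2 fold change 2.05), against 55.9% of all genes. DESeq2 called 11, all higher, against 0.955% of genes called higher. In spleen 13 of 16 lay above 0 (median 2.18), against 43.5% of all genes, and DESeq2 called 10, all higher, against 0.953% of genes. The same shares of all genes stand beside the FoxO and immediate early lists below. Ddit4, an mTORC1 inhibitor, had 164.0 and 84.4 in mutant livers, against 6.49 and 8.36 in control livers, and Fkbp5, a receptor cochaperone, had 318.2 and 237.7 in mutant spleens, against 56.0 and 62.0 in control spleens. The groups did not overlap in either. In brain 13 of 14 lay above 0 (median 0.36), against 46.1% of all genes, with 0 called. There 10 of the 14 (71.4%) stood above in both mutants, against 13.8% of genes, while Cdkn1a had a log2 fold change of -0.17. In fibroblasts 3 of 13 lay above 0 (median -0.11), against 48.9% of all genes, with 0 called. FoxO targets, which fasting and low insulin induce, gave 12 of 12 above 0 in liver (median 0.88, 4 called higher by DESeq2) and 12 of 13 in spleen (median 0.82, 3 called higher), against 6 of 11 in brain and 4 of 12 in fibroblasts with 0 called. Immediate early genes had medians of 1.12 in liver, 0.68 in spleen, -0.14 in brain and -0.19 in fibroblasts, with Nr4a1 and Fos called higher in liver and Fos in spleen. These lists were compiled with earlier results of these data known, and whether their change is linked to that of Cdkn1a, Trp53inp1, Btg2 or Plk3 was not tested.

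**Figure D4:**
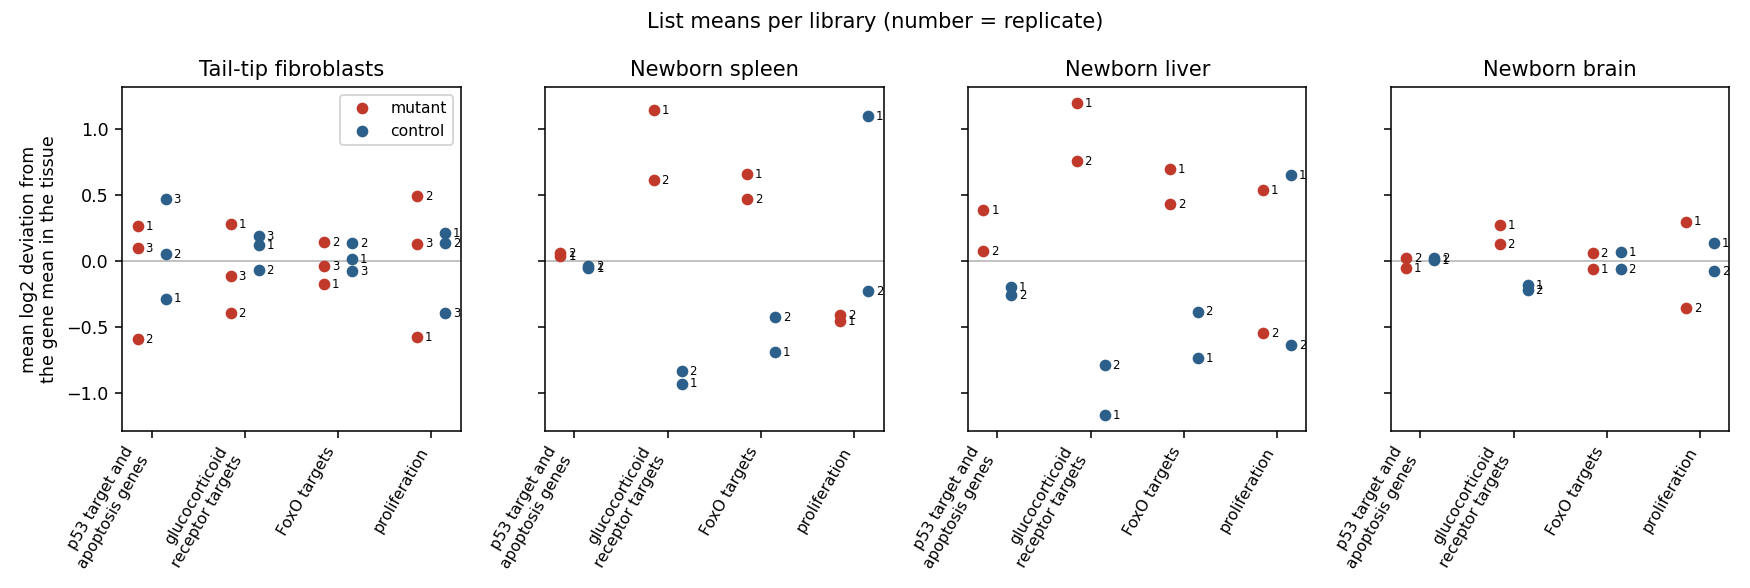
Mean over each list of log2(signal + 0.5) minus the gene mean in the tissue, for each mutant and control library (points, numbered by replicate). In spleen and liver the mutant points of glucocorticoid receptor and FoxO targets lie above 0 and the control points below 0, while the members are at 0.38 and 0.07 in mutants and -0.20 and -0.26 in controls of liver, and lie between -0.06 and 0.06 in spleen.

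Some values are less certain by gene structure. In the GENCODE annotation 8 members share exon bases with another gene, from 3.32% of exon bases for Plk3 (with Tctex1d4) and 7.68% for Cdkn1a to 23.8% for Ddb2 (with Acp2), and the strand setting of the counting was not stated in the labels or headers. Rrm2b and Tnfrsf10b have near-identical copies elsewhere (96.1% and 97.5% identity over 1051 and 405 bases) that could take up reads.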

How the data were processed

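Total RNA (Trizol, rRNA depleted with RiboMinus) was sequenced as 50 nt reads on HiSeq instruments, per the labels' protocols and the series' design text. The deposited signal values are gene counts made by the authors with HTSeq 0.6.1 and normalised with edgeR (version not stated) on GRCm38/mm10, per the submitters' processing notes. The sources used here give no aligner, annotation release or strand setting.

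Every nonzero signal was a whole multiple, within 0.05, of the value of 1 read in its library (100% of values), so whole reads were recovered for the count tests. Of 46078 identifiers, 45229 matched a GENCODE M21 name and 849 did not. Mutants were compared with controls within each of the 4 tables with limma 3.58.1 (R 4.3.3, trend, log2(signal + 0.5), table mean of at least 1, Benjamini-Hochberg adjustment at 0.05). DESeq2 1.42.0 and edgeR 4.0.16 (quasi-likelihood) on the recovered reads, pseudocounts of 0.1 and 1, other filters, TMM and DESeq2 size factors, a pooled spread, a replicate block and leaving out each library were alternatives. Leaving out libraries under DESeq2 was added after seeing the data. Tissues were compared with a joint limma fit over 18 libraries and 8 groups. The series' design text names heart where the sample labels give brain, and the labels were followed.

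The members and the other gene lists were chosen with earlier results of these data known. Values in full are given for Trp53, Cdkn1a and Mdm2 in each tissue, for members past limma or DESeq2 and for the 6 smallest limma p-values per tissue, and from other lists for up to 3 genes with the smallest p. Further genes are named where a comparison turns on them, chosen after their values were seen. Promoter windows came from RefSeq. The analysis code was tested on simulated data.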

Additional observations from a re-analysis of the deposited data

Results flagged for a closer look

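The change of Plk3 in mutants differed between fibroblasts and liver by -3.09 on the log2 scale (limma adjusted p = 0.0476 over 11439 genes), with both mutant livers above both control livers and overlapping groups in fibroblasts. The change of Trp53inp1 differed between the same tissues by -3.37 (limma adjusted p = 0.0476), again with separation in liver only. EdgeR gave an adjusted p of 0.0550 for each. The limma fit shared its spread over the 8 groups, so its p-values do not measure the spread in these tissues alone.

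Fas stood higher in both mutant spleens than in both control spleens and lower in both mutant livers than in both control livers. Over all genes 18.3% were higher without overlap in spleen and 13.1% lower in liver. Btg2 was lower without overlap in spleen and higher in liver. Tnfrsf10b, Plk3, Bbc3 and Aen had opposite directions without overlap in other pairs of tissues. The log2 fold change of Fas in spleen exceeded that in liver by 1.68, and Fas was picked out for these opposite directions. The difference was not tested, since Fas was under the filter in brain and so outside the joint fit.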

How the results depend on the processing

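Limma called 0 members in each tissue. In spleen DESeq2 called 2 members, the replicate block 2 (Cdkn1a and Trp53inp1, of 356 genes) and leaving out 1 library 0 to 1. In liver DESeq2 called 4 and the spread pooled over 8 groups 2. The replicate block called 60 genes in liver, with none of the 4 members called by DESeq2 among them. DESeq2 without 1 library called 0 members in fibroblasts and brain, 0 to 5 in spleen and 2 to 5 in liver. The median over members ranged on leaving out 1 library from -0.45 to 0.10 in fibroblasts, -0.09 to 0.05 in spleen, 0.080 to 0.38 in liver and -0.098 to 0.023 in brain.

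Member differences between tissues numbered 2 by limma, 2 with TMM, 2 at a pseudocount of 1 and 6 by DESeq2. They numbered 0 by edgeR, 0 at a pseudocount of 0.1 and 0 with the replicate block. Both limma calls were between fibroblasts and liver. Over all genes limma called 11 there, DESeq2 104, edgeR 7 and the block 6, with 6 at a pseudocount of 0.1. Without 1 library, Trp53 in fibroblasts ranged from -0.013 to 0.11 on the log2 scale, Mdm2 from -0.77 to 0.10 and Cdkn1a from -0.98 to 0.39. Mdm2 in liver ranged from -0.12 to 0.25 and Cdkn1a in brain from -0.54 to 0.19. Over all genes in fibroblasts, spleen, liver and brain, limma called 0, 0, 0 and 4, DESeq2 3, 182, 211 and 41, and edgeR 0, 0, 0 and 4. In the same order the pooled spread called 1, 174, 278 and 7, no filter 0, 22, 11 and 13, and the block 0, 356, 60 and 4.

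Labels give the genotypes the same replicate numbers. Same-numbered mutants and controls correlated in their deviations at -0.08, 0.43 and 0.02 in fibroblasts, -0.03 in spleen, 0.58 in liver and 0.08 in brain. In fibroblasts not every library correlated best with its own number. With 2 libraries per genotype, the correlation between different numbers is by construction the same value with its sign reversed, -0.58 in liver. It adds nothing to the 0.58, by which same-numbered livers deviated together. The main tests took the numbers as pairs in no tissue, and the replicate block gives the alternative. With 2 libraries per genotype in each organ, a single library can decide a call, and Xist remained at 32.8% of the control mean in liver.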

Other observations

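The ATF4 stress response list, which covers amino acid and endoplasmic reticulum stress, lay above 0 in fibroblasts in 13 of 13 genes tested (median log2 fold change 0.40, against 48.9% of all genes above 0), with 0 called by limma or DESeq2 and 2 at an unadjusted limma p under 0.05. Ddit3 (Chop) had 39.2, 26.1 and 31.97 in mutants, against 25.1, 18.7 and 22.6 in controls, and Trib3, a pseudokinase, had 93.1, 38.3 and 38.2 in mutants, against 31.5, 26.3 and 26.3 in controls. In both the groups did not overlap. All 6 fibroblast markers also lay above 0 there, with sums of 22865 to 36769 in mutants, against 20412 to 22214 in controls, and their part in the ATF4 list was not tested. In liver 9 of 14 lay above 0, against 55.9% of all genes, with Trib3 called higher and Fgf21 lower by DESeq2, which called 1.4% of all genes. In spleen and in brain 5 of 13 lay above 0, against 43.5% and 46.1% of all genes.

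Inhibitors of apoptosis such as Bcl2 relatives showed no call by limma or DESeq2 in any tissue, with 5 of 10 above 0 in fibroblasts, 6 of 10 in spleen, 6 of 10 in liver and 4 of 10 in brain. In brain the apoptosis effector Tradd, an adaptor of the TNF receptor, had 2.00 and 2.14 in mutants, against 4.59 and 4.42 in controls, without overlap (log2 fold change -0.96), and did not pass.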
